A study of Mus musculus with 6 samples.

Results

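The 35 genes described here mark endothelial cells, the cells that line blood vessels. They were chosen by name from 19938 genes that stood alone on at least 1 transcript cluster, the group of probes that covers a transcript, and each had exactly 1 such cluster, so no choice between clusters was needed. Retinae came from newborn mice (postnatal day 0) on a C57BL/6NTac background, either Meg2 knockout (3 samples) or Meg2 wild type (3 samples). Ptpn9 is the gene of Meg2, a protein tyrosine phosphatase. The labels name no cell type or driver for the deletion, and neither do they state what part of Ptpn9 was removed. Per the labels, both retinae of 1 animal were pooled and run on 1 whole-transcript array, with replicate numbers 1 to 3 in each genotype.

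Endothelial cells of the mouse retina arrive around birth, when vessels begin to spread from the optic nerve head over a bed of astrocytes, guided by vascular endothelial growth factor (VEGF). The hyaloid vessels inside the eye, which nourish the lens and the early retina, are present at the same age and later regress. Endothelial cells hold together through VE-cadherin junctions, read VEGF and angiopoietin through receptor tyrosine kinases, and keep their identity through ETS and SOX transcription factors.

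Signals were log2 values normalised across arrays, and array medians lay between 7.84 and 7.91. With 3 arrays a side, precision was limited by their number. Ptpn9 read 9.31, 9.58 and 9.28 on the knockout arrays and 10.05, 9.93 and 9.94 on the wild-type arrays, a difference of -0.58 (SE 0.087; limma, adjusted p = 0.437), and whether its probes lie in the removed part is not known here. Both replicate 2 arrays carried Xist, made from the inactive X chromosome (12.54 in knockout, 12.54 in wild type), together with the Y-linked gene Eif2s3y (7.66 in knockout, 7.76 in wild type). The other arrays carried either Xist (both of number 1) or high Y-linked signal (both of number 3), so the replicate 2 arrays stood against the label of 1 animal per array, and results are also given without them. The retinal transcription factor genes Pax6 and Crx lay between 12.52 and 12.63 and between 10.97 and 11.33 over the 6 arrays.

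Promoters of endothelial genes are known for binding sites of ETS factors such as ERG and ETS1, themselves among the 35 genes. Windows of 300 bases, from 250 before to 50 after an annotated start (RefSeq, GRCm38.p6), were found for 20 of the 35 genes, at 25 starts. The ETS core GGAA was searched on both strands, together with the longer ERG-type site CAGGAAG, which contains it, the SOX core AACAAT and, for comparison, the E-box CACGTG. The core was present in 24 of 25 windows (96.0%), the same share as over all 32851 promoters (96.0%). CAGGAAG was present in 9 of 25 windows (36.0%), against 13.3% of all promoters, AACAAT in 5 of 25 (20.0%, against 10.7%) and CACGTG in 0 of 25 (against 7.15%). These are letter matches and were not tested as binding sites. Starts of 1 gene counted as separate windows, and CAGGAAG stood at more than 1 start of Egfl7. The windows shown belong to the 5 genes with the lowest p-values below that had one, and capitals mark every GGAA or its reverse complement TTCC, 5′ to 3′ along the gene.
Cd34 promoter, chr1:194938571-194938870, plus strand: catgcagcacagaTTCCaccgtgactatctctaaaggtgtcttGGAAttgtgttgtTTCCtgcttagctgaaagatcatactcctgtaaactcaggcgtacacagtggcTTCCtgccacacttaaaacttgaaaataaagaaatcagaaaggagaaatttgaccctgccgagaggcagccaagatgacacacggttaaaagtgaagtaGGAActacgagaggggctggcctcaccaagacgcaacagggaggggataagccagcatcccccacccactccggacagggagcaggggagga
Rhoj promoter, chr12:75308063-75308362, plus strand: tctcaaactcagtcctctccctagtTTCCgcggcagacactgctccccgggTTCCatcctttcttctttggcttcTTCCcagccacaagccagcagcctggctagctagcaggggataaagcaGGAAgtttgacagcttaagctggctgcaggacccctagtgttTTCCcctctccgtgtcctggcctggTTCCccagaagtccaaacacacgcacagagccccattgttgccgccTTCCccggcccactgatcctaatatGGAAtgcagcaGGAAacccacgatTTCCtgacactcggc
Adgrl4 promoter, chr3:151437632-151437931, plus strand: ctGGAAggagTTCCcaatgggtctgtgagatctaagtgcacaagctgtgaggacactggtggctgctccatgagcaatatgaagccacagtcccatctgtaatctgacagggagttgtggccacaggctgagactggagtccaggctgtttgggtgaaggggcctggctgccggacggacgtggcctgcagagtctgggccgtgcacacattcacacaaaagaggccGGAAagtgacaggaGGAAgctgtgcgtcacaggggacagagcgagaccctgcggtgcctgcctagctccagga
Emcn promoter, chr3:137340828-137341127, plus strand: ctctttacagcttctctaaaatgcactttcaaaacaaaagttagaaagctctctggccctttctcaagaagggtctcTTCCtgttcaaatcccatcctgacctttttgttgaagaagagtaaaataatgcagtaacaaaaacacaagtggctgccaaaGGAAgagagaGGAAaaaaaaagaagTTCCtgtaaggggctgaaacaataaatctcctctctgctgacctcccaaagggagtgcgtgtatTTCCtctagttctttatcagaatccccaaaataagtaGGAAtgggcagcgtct
Apln promoter, chrX:48034804-48035103, minus strand: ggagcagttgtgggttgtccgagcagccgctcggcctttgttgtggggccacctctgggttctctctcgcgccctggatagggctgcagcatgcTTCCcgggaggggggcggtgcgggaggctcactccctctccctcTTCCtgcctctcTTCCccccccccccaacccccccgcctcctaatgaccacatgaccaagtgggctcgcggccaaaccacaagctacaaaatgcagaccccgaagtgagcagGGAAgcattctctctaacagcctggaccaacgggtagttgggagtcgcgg
The Rhoj window held the most ETS cores of the 5, with 10, and the Emcn window held 6, while Cd34 had 5 and Adgrl4 and Apln had 4 each. CAGGAAG or its reverse complement stood once in the windows of Cd34, Rhoj, Emcn and Apln and was not among the letters of the Adgrl4 window. AACAAT stood once each in the Rhoj and Emcn windows.

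Signal of most of these genes was weak in whole retina. Clusters of 1035 olfactory receptor genes, which belong to the nose, gave a yardstick for near-background signal, with a 95th percentile of 7.18. Of the 35 genes 21 had a mean above that value and 14 did not, and 5 (Kdr, Cldn5, Dll4, Rhoj and Egfl7) lay above 8.51, the median of all 23410 clusters with a gene name. Kdr and Dll4 are known to be made by developing retinal neurons and progenitors as well as by vessels, so their signal is not that of vessels alone. Probes differ in brightness, so signals were compared between arrays and not between genes. A gene close to background shows a smaller difference than its transcript has.

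The question for the genotypes was whether loss of Meg2 went with other levels of endothelial transcripts. Of the 35 genes 33 had a higher mean in knockout retinae, where 50.7% of all named clusters did. The median difference, knockout minus wild type, was 0.10 on the log2 scale, beside 0.0012 over all named clusters. No gene passed correction over all named clusters in limma, with adjusted p-values from 0.437 for Cd34 to 0.9995. At an unadjusted p under 0.05, 10 of the 35 were higher and 0 were lower, where 1.69% of all named clusters were higher and 1.74% lower. The genes were proposed with earlier results of this comparison known, so these counts describe the samples and are not independent evidence of a direction. In whole tissue a larger number of endothelial cells and more of a transcript in each cell cannot be told apart. Whether the signal came from vessels of the retina or from hyaloid vessels was not tested.

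In 9 of the 35 genes every knockout array lay above every wild-type array, and in 0 every knockout array lay below, where 4.08% and 4.35% of all named clusters did so. These genes were Cd34, Cd93, Adgrl4, Cdh5, Emcn, Rhoj, Flt1, Apln and Ecscr. They span the surface, the junction, VEGF and apelin signalling and the cytoskeleton, and no transcription factor is among them.

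**Figure D1:**
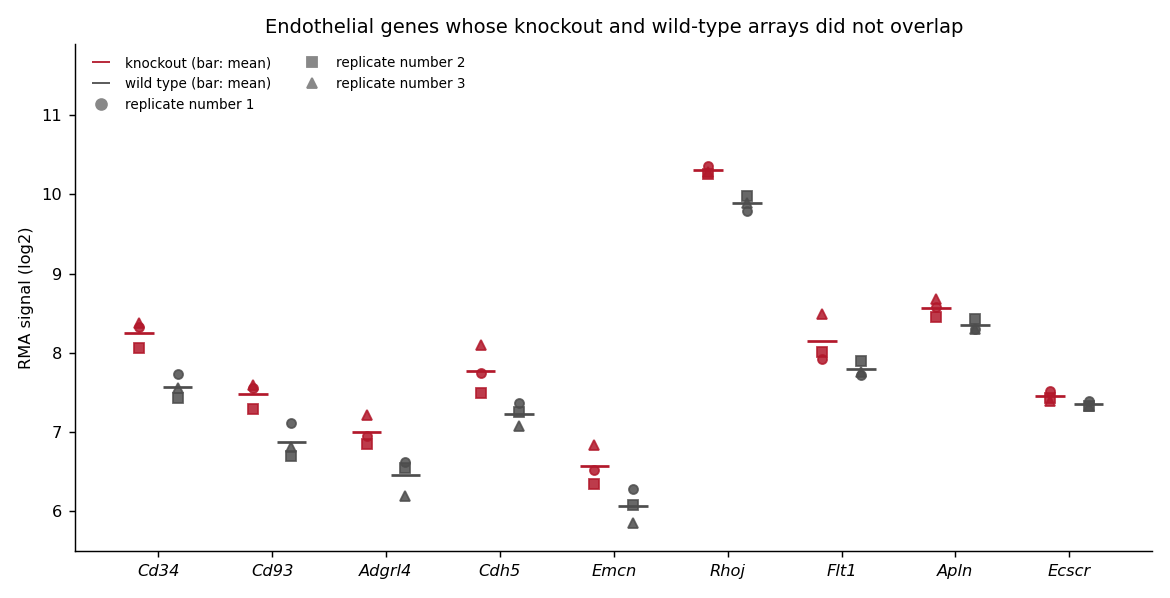
RMA signal (log2) of the 9 endothelial genes whose arrays did not overlap, with knockout in red on the left and wild type in grey on the right of each gene. Symbols are arrays by replicate number and bars are means of 3 arrays. The gap between genotypes is widest for Cd34, and the replicate 3 knockout array stands highest for all of them except Rhoj and Ecscr.

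Junction and adhesion genes formed the first group, with 7 of 8 higher in knockout retinae and 3 of 8 so at an unadjusted p under 0.05, where 50.7% and 1.69% of named clusters were (median difference 0.17). Cd34, a sialomucin on the luminal surface of endothelium and on blood progenitors, read 8.32, 8.06 and 8.38 in knockout retinae, against 7.73, 7.43 and 7.55 in wild-type retinae. Its means of 8.25 ± 0.17 and 7.57 ± 0.15 (SD, n = 3 each) differed 1.60-fold, and the log2 difference was 0.68 (SE 0.10; limma, adjusted p = 0.437). With the replicate number as a block the SE was 0.059 and the adjusted p 0.0869 (limma), the lowest among the 35 genes, of which 0 passed correction with the block, where 0.00427% of named clusters did. All 3 replicate numbers showed the Cd34 difference at similar size, by 0.59, 0.63 and 0.82.

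Cdh5, the gene of VE-cadherin, read 7.74, 7.49 and 8.09 in knockout retinae and 7.37, 7.26 and 7.07 in wild-type retinae. The knockout mean was 7.78 ± 0.30 and the wild-type mean 7.23 ± 0.15 (SD, n = 3 each), and the difference was 0.54 (SE 0.14). The genotypes did not overlap, yet the size rested on replicate number 3, with a difference of 1.02 there against 0.37 and 0.23 in numbers 1 and 2. Emcn, which encodes endomucin, a mucin of venous and capillary endothelium, read 6.52, 6.35 and 6.83 in knockout retinae, against 6.29, 6.08 and 5.85 in wild-type retinae. Its difference of 0.50 (SE 0.14) had the same make-up, with 0.24, 0.28 and 0.98 in numbers 1, 2 and 3, and all 6 arrays lay under the olfactory receptor mark.

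The other junction genes differed less. Robo4, a guidance receptor that stabilises vessels, read 7.52, 7.26 and 7.48 in knockout retinae and 7.31, 7.12 and 7.26 in wild-type retinae, so the lowest knockout array lay inside the wild-type range. The Robo4 difference of 0.19 had an SE of 0.085 without the replicate block and of 0.046 with it. Over all 6 arrays its unadjusted p was under 0.05 with the block and not without it. Pecam1, the adhesion molecule CD31, read 7.27, 7.10 and 7.33 in knockout retinae, against 7.08, 7.11 and 7.08 in wild-type retinae. Replicate numbers 1 and 3 placed Pecam1 higher in knockout retinae by 0.19 and 0.25, while number 2 gave -0.01.

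Claudin 5, the tight junction protein of barrier vessels encoded by Cldn5, read 10.55, 10.33 and 10.72 in knockout retinae and 10.53, 10.29 and 10.55 in wild-type retinae. Its difference of 0.08 (SE 0.11) was smaller than the spread among wild-type arrays (SD 0.14). Esam, another junction molecule, differed by 0.08 (SE 0.15), with number 2 at -0.23 and number 3 at 0.41. Icam2, an adhesion molecule that also binds leukocytes, was the 1 junction gene lower in knockout retinae, with 7.64, 7.55 and 7.38 there and 7.66, 7.71 and 7.61 in wild-type retinae. Its difference was -0.13 (SE 0.075), and over all 6 arrays its unadjusted p was under 0.05 with the block and not without it.

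**Figure D2:**
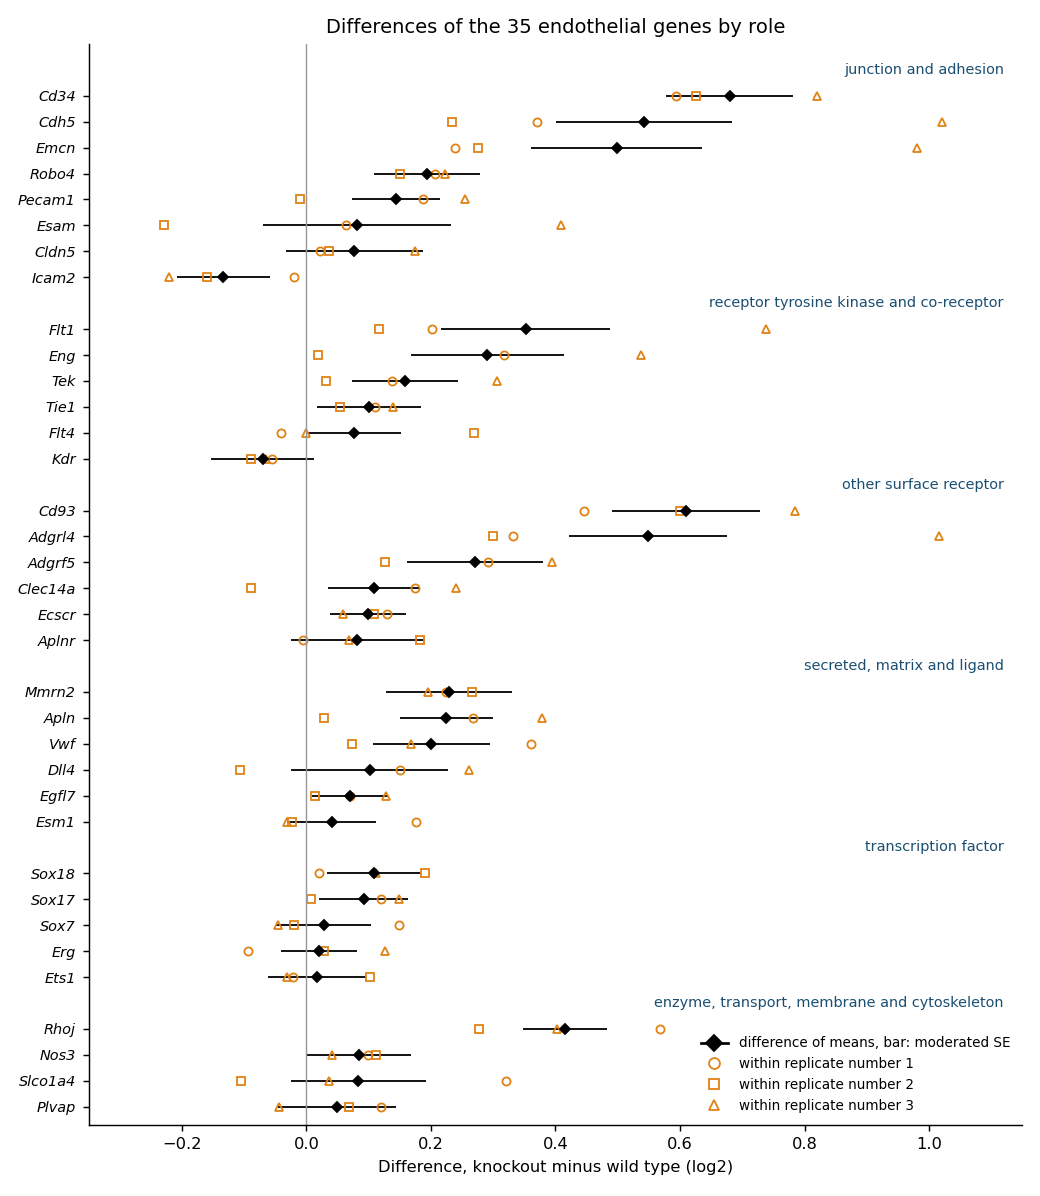
Difference between knockout and wild type (log2) for each of the 35 genes, grouped by role and sorted within a group. Black diamonds are differences of means with the moderated SE from limma, and open symbols are the differences within each replicate number. Only Kdr and Icam2 lie left of 0, the 5 transcription factor genes lie close to it, and triangles (number 3) reach the far right for Cdh5, Adgrl4 and Emcn.

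Receptor tyrosine kinases and the co-receptor endoglin followed, with 5 of 6 higher and 2 of 6 at an unadjusted p under 0.05, beside 50.7% and 1.69% of named clusters (median difference 0.13). Flt1, the VEGF receptor 1 that also acts as a trap for the ligand, read 7.93, 8.01 and 8.50 in knockout retinae and 7.72, 7.90 and 7.76 in wild-type retinae. The Flt1 difference was 0.35 (SE 0.14), and without the replicate 3 knockout array it was 0.18. Eng, which encodes endoglin, a co-receptor for bone morphogenetic proteins, read 7.97, 7.58 and 8.12 in knockout retinae, against 7.66, 7.56 and 7.59 in wild-type retinae. Its replicate 2 knockout array lay inside the wild-type range, and the difference was 0.29 (SE 0.12), or 0.18 without the replicate 3 knockout array.

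Kdr, the main signalling receptor for VEGF, read 11.84, 11.70 and 11.94 in knockout retinae and 11.89, 11.79 and 12.01 in wild-type retinae. The arrays overlapped and the difference was -0.07 (SE 0.083), with a small negative value in each replicate number (-0.05, -0.09 and -0.07). The angiopoietin receptor gene Tek read 6.96, 6.71 and 6.94 in knockout retinae, against 6.82, 6.68 and 6.64 in wild-type retinae. It was higher within every number, by 0.14, 0.03 and 0.31, and differed by 0.16 (SE 0.085), with an unadjusted p over all 6 arrays that was under 0.05 with the block and not without it. Tie1, the partner of Tek, differed by 0.10 (SE 0.084). Flt4, the VEGF receptor 3 of sprouting and lymphatic endothelium, differed by 0.08 (SE 0.076), and -0.02 when both replicate 2 arrays were left out.

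Among 6 other surface receptors all 6 had higher means in knockout retinae and 3 had an unadjusted p under 0.05, beside 50.7% and 1.69% of named clusters (median difference 0.19). Cd93, a C-type lectin receptor that binds the matrix protein multimerin 2, read 7.56, 7.29 and 7.60 in knockout retinae and 7.12, 6.69 and 6.81 in wild-type retinae. Knockout retinae averaged 7.48 ± 0.17 and wild-type retinae 6.88 ± 0.22 (SD, n = 3 each), 1.53-fold apart. On the log2 scale that was 0.61 (SE 0.12), with an adjusted p of 0.999 in limma. The 3 replicate numbers gave 0.45, 0.60 and 0.78, and with the replicate block the adjusted p was 0.207 (limma). Like Cd34, Cd93 thus differed in each pair of arrays by more than 0.4. Its mean over all arrays did not exceed the olfactory receptor mark, and every wild-type array lay under that mark.

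Adgrl4, an adhesion G protein-coupled receptor of endothelium, read 6.95, 6.85 and 7.21 in knockout retinae, against 6.62, 6.55 and 6.20 in wild-type retinae. Its difference was 0.55 (SE 0.13), made up of 0.33, 0.30 and 1.02 in numbers 1, 2 and 3. The Adgrl4 mean over all arrays, 6.73, lay under the olfactory receptor mark. The relative Adgrf5, which acts in lung and vessels, read 6.63, 6.50 and 6.93 in knockout retinae and 6.34, 6.38 and 6.54 in wild-type retinae. Here the arrays overlapped and the difference was 0.27 (SE 0.11), or 0.15 without the replicate 3 knockout array. Every Adgrf5 value lay under the olfactory receptor mark.

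Ecscr, a small membrane protein of endothelium, read 7.52, 7.43 and 7.39 in knockout retinae and 7.39, 7.33 and 7.34 in wild-type retinae, arrays that were apart by very little at a difference of 0.10 (SE 0.060), and its unadjusted p was not under 0.05. Clec14a, a lectin receptor related to Cd93, differed by 0.11 (SE 0.074), with -0.09 in replicate number 2. The apelin receptor gene Aplnr differed by 0.08 (SE 0.11).

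Secreted, matrix and ligand genes had 6 of 6 higher means and 1 at an unadjusted p under 0.05, beside 50.7% and 1.69% of named clusters (median difference 0.15). Apln, which encodes apelin, the ligand of Aplnr made by tip cells at the front of a sprout, read 8.57, 8.46 and 8.68 in knockout retinae, against 8.31, 8.43 and 8.30 in wild-type retinae. The lowest knockout array was 0.03 above the wild-type array of its number, and the difference of means was 0.22 (SE 0.074). Esm1, another gene known from tip cells, read 6.85, 6.61 and 6.67 in knockout retinae and 6.67, 6.64 and 6.70 in wild-type retinae, so its arrays overlapped (difference 0.04, SE 0.072). The Notch ligand gene Dll4, also known from tip cells, differed by 0.10 (SE 0.13), with -0.11 in number 2 and 0.26 in number 3.

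Mmrn2, which encodes multimerin 2, the matrix ligand of Cd93 and Clec14a, read 7.05, 6.77 and 6.82 in knockout retinae and 6.82, 6.50 and 6.63 in wild-type retinae. Its arrays overlapped, while the within-number differences of 0.22, 0.27 and 0.20 were close to each other. The difference of 0.23 had an SE of 0.10 without the block and 0.046 with it, and the unadjusted p over all 6 arrays was under 0.05 with the block and not without it. Vwf, the clotting factor that endothelium stores, read 8.01, 7.62 and 7.81 in knockout retinae, against 7.65, 7.55 and 7.64 in wild-type retinae (difference 0.20, SE 0.094). Over all 6 arrays the unadjusted p of Vwf, too, was under 0.05 with the block and not without it. Platelets also hold this protein, and their marker Pf4 read 7.90, 7.27 and 7.91 in knockout retinae and 7.19, 7.22 and 7.71 in wild-type retinae. The replicate 1 arrays gave the largest difference for both genes, and the part of platelets in the Vwf value was not tested. Over the 9 measured platelet genes the median difference was 0.03, and that of Pf4 was the highest. Egfl7, a secreted protein of vessel tubes, differed by 0.07 (SE 0.061).

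The 5 transcription factor genes had small positive differences (50.7% of named clusters lay above 0), from 0.02 to 0.11, and none reached an unadjusted p under 0.05 in limma with or without the replicate block. Erg, the ETS factor that maintains endothelial identity, read 6.92, 6.96 and 7.03 in knockout retinae and 7.01, 6.93 and 6.90 in wild-type retinae. Its arrays overlapped, and the difference of 0.02 (SE 0.061) had both signs among the replicate numbers. Ets1 differed by 0.02 (SE 0.078), and the SOX genes of vessel growth and artery formation, Sox7, Sox17 and Sox18, by 0.03 (SE 0.077), 0.09 (SE 0.072) and 0.11 (SE 0.075). Whether these differences were smaller than those of the surface genes was not tested.

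Among the last 4 genes, Rhoj stood apart from its neighbours in the list. Rhoj, a small GTPase enriched in endothelium that controls the shape and movement of its cells, read 10.36, 10.26 and 10.29 in knockout retinae and 9.79, 9.99 and 9.89 in wild-type retinae. The means of 10.30 ± 0.048 and 9.89 ± 0.099 (SD, n = 3 each) differed 1.33-fold (log2 0.42, SE 0.068; limma, adjusted p = 0.449). It was the 1 gene of the 9 without overlap whose signal lay above the median of named clusters, and its largest within-number difference was in number 1 (0.57) rather than number 3 (0.40).

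Plvap, which forms the diaphragms of fenestrated vessels such as those of the choroid, read 7.09, 6.79 and 6.83 in knockout retinae, against 6.96, 6.72 and 6.88 in wild-type retinae. The arrays overlapped, with a difference of 0.05 (SE 0.095). Slco1a4, an organic anion transporter of barrier vessels, read 5.34, 4.87 and 4.99 in knockout retinae and 5.02, 4.98 and 4.96 in wild-type retinae, below the olfactory receptor median of 5.44. Nos3, the endothelial nitric oxide synthase gene, differed by 0.08 (SE 0.084).

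**Figure D3:**
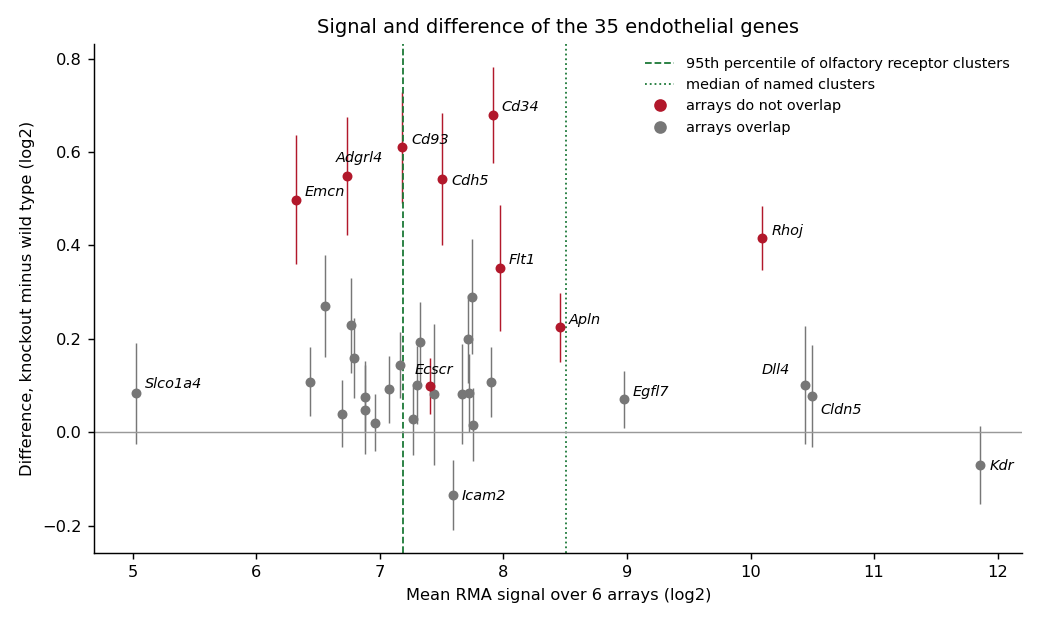
Mean RMA signal over 6 arrays (log2, horizontal) and difference between knockout and wild type (log2, vertical, with the moderated SE) of the 35 genes, in red where arrays did not overlap. The dashed line marks the 95th percentile of olfactory receptor clusters (7.18) and the dotted line the median of named clusters (8.51). Rhoj is the only red point right of the dotted line, and Kdr, Cldn5, Dll4 and Egfl7 lie there near 0.

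Agreement within replicate numbers was examined because arrays of the same number deviated together from their group means over all named clusters (Pearson's r of 0.476, 0.485 and 0.455). Over the 35 genes alone the same correlations, which share array and normalisation, were 0.258, 0.0462 and -0.109 for numbers 1, 2 and 3. The knockout array was the higher one for 29 of the 35 genes in number 1, for 26 in number 2 and for 28 in number 3, where 50.6%, 49.6% and 51.2% of all named clusters were. In all 3 numbers the knockout was higher for 21 genes, beside 16.5% of named clusters, and lower for Kdr and Icam2, beside 15.9%. The median within-number difference over the 35 genes was 0.15, 0.07 and 0.17 in numbers 1, 2 and 3.

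The 3 knockout arrays differed among themselves. Replicate 2 was the lowest knockout array in 29 of the 35 genes (37.2% of named clusters) and the lowest wild-type array in 20 (34.8% of named clusters). The difference was largest in number 3 for 20 of the 35 genes, where 35.2% of named clusters had theirs. Without both replicate 2 arrays, 31 of the 35 genes were higher in knockout retinae (51.6% of named clusters), the median difference was 0.21, and 15 were higher at an unadjusted p under 0.05 in limma (1.55% of named clusters). Knockout and wild-type arrays then did not overlap in 23 genes, 22 of them higher (14.4% of named clusters) and 1 lower (14.7%). Cd34, Cd93 and Rhoj differed by 0.71, 0.62 and 0.49 in that comparison. With the replicate number as a block, 15 genes had an unadjusted p under 0.05, 14 of them higher (4.46% of named clusters) and Icam2 lower (4.36%). Without the replicate 2 knockout array alone the count without the block was 17, and without the replicate 3 knockout array it was 6. No share of named clusters stands beside either of these counts.

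Other endothelial genes, not among the 35, were counted from 3 lists. They hold further markers of all endothelium, genes of the blood barrier and genes of tip cells, arteries and veins. Of 68 measured genes 43 were higher in knockout retinae (50.7% of named clusters), with a median difference of 0.03. The knockout array was the higher one for 50 of the 68 in number 1, 28 in number 2 and 49 in number 3, where 50.6%, 49.6% and 51.2% of named clusters were. With the lens gene mean as a covariate 32 of the 68 lay above 0 (47.7% of named clusters). In limma 4 were higher and 1 lower at an unadjusted p under 0.05, beside 1.69% and 1.74% of named clusters. The higher ones were Ptprb, the VE-cadherin-associated phosphatase gene (0.27, SE 0.10), the drug efflux pump gene Abcb1a (0.27, SE 0.094), the Notch ligand gene Jag1 (0.21, SE 0.059) and Igfbp3 (0.21, SE 0.070). The lower one was Mfsd2a, a lipid transporter of barrier vessels that pigment epithelium also makes. Mfsd2a read 9.34, 9.13 and 9.33 in knockout retinae, against 9.48, 9.42 and 9.63 in wild-type retinae (difference -0.24, SE 0.081). None of these passed correction, and several are made by retinal neurons or glia as well.

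Markers of cells that lie beside vessels or around the retina were also compared between the genotypes, and their part in the endothelial values was not tested. In the lists below, the mean signals of the arrays overlapped between the genotypes, except for pericyte and mural cell genes. Relative to the mean of 6 arrays, the mean log2 signal of the 35 endothelial genes was 0.152, -0.040 and 0.165 in knockout retinae, against -0.026, -0.139 and -0.113 in wild-type retinae. Pericyte and mural cell genes, which wrap the vessels, read 0.091, -0.018 and 0.095 in knockout retinae, against -0.053, -0.037 and -0.079 in wild-type retinae. Of 16 such genes 13 were higher, where 50.7% of named clusters were, a share that holds for the marker counts that follow as well. The pericyte gene Rgs5 read 7.76, 7.43 and 7.89 in knockout retinae and 7.26, 7.17 and 7.16 in wild-type retinae. Summed on the linear scale their signal ranged from 4752 to 5703 in knockout retinae and from 4365 to 4582 in wild-type retinae.

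Microglia and macrophage genes were higher in 13 of 17, with sums from 3902 to 4746 in knockout retinae and from 3841 to 4140 in wild-type retinae. Among them C1qb differed by 0.47 (SE 0.13) and F13a1 by 0.46 (SE 0.17). Genes of the astrocyte list were higher in 9 of 10, and which cells of the retina gave their signal was not tested. Pdgfra read 8.83, 8.61 and 9.06 in knockout retinae, against 8.69, 8.50 and 8.54 in wild-type retinae. The brightest gene of that list, Fabp7, read 13.82, 13.78 and 13.92 in knockout retinae, against 13.68, 13.67 and 13.72 in wild-type retinae, and weighed most in the sums. The median difference of the 10 genes was 0.06, while their sums ranged from 27256 to 30604 in knockout retinae and from 26244 to 26998 in wild-type retinae. Of 16 listed red blood cell genes 7 were measured, and of these 2 were higher and the others lower. Their sums ranged from 867 to 925 in knockout retinae and from 890 to 941 in wild-type retinae. The mean log2 signal of these red blood cell genes lay between 6.77 and 6.90 on every array, under the olfactory receptor mark of 7.18. With signal so close to background, whether blood content differed between the genotypes was not tested. RMA values have no zero, so no marker could be read as absent.

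Lens genes were higher in 21 of 23, with sums from 4477 to 5211 in knockout retinae and from 4302 to 4763 in wild-type retinae. Relative to their own mean over 6 arrays they read 0.060, -0.045 and 0.197 in knockout retinae, against -0.006, -0.106 and -0.100 in wild-type retinae. With that mean as a covariate in limma, 23 of the 35 endothelial genes lay above 0 (47.7% of named clusters), the median difference was 0.03, and 4 were higher at an unadjusted p under 0.05 (1.42% of named clusters). Those 4 were Cd34 at 0.47, Rhoj at 0.45, Cd93 at 0.37 and Adgrl4 at 0.31, while Cdh5, Emcn, Flt1 and Eng were at 0.20, 0.19, 0.14 and 0.02. Of those 4, Cd93 and Adgrl4 had means that did not exceed the olfactory receptor mark. The lens mean was itself higher in knockout retinae within every number, by 0.065, 0.061 and 0.297. This fit therefore cannot separate lens signal from genotype. Periocular mesenchyme and choroid genes were higher in 9 of 17, with a median difference of 0.001, the retinal list was higher in 13 of 17, with a median of 0.02, platelet genes in 7 of 9 and pigment cell genes in 8 of 15. The proteoglycan gene Bgn of the mesenchyme list read 8.16, 7.95 and 8.12 in knockout retinae and 7.70, 7.38 and 7.41 in wild-type retinae. Fbln1 of the same list went the other way, with 10.19, 10.35 and 10.32 in knockout retinae, against 10.36, 10.42 and 10.45 in wild-type retinae.

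**Figure D4:**
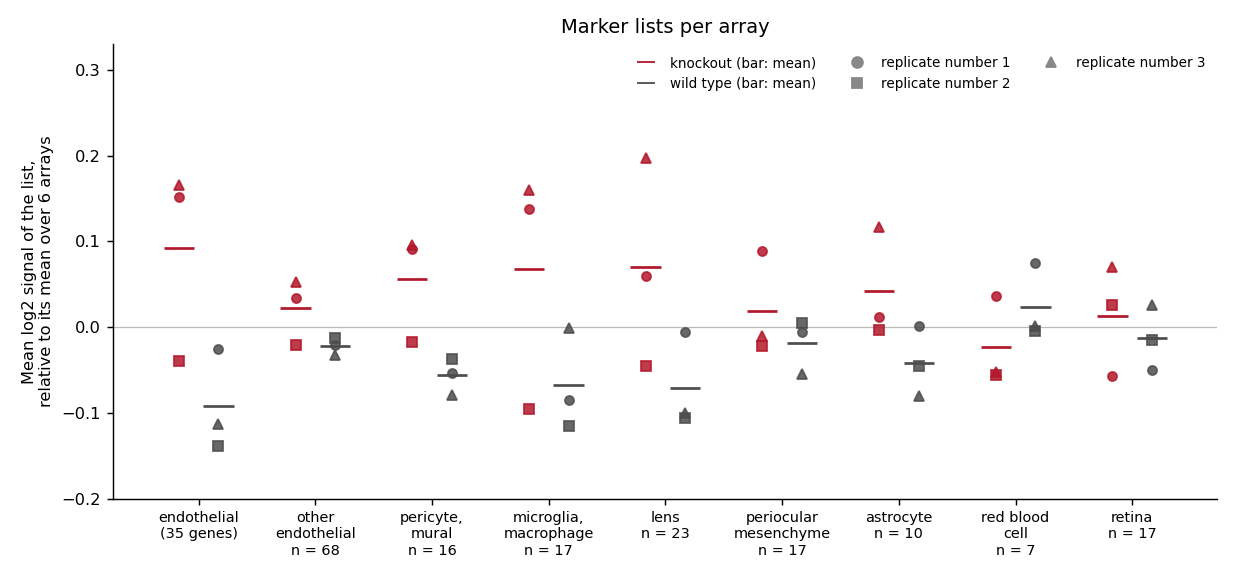
Mean log2 signal of each marker list per array, relative to its own mean over the 6 arrays, with knockout in red on the left and wild type in grey on the right. Symbols are replicate numbers, bars are means of 3 arrays, and n is the number of measured genes. The replicate 2 knockout array lies below the other knockout arrays in every list plotted except retina.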

How the data were processed

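Retinal RNA was run on 6 whole-transcript Affymetrix arrays, and the authors deposited 1 log2 signal for each transcript cluster and array. Per the submitters' processing notes the authors used Affymetrix Expression Console, RMA and Transcriptome Analysis Console; no versions are stated. RMA corrects background, equalises the distribution of probe values between arrays and combines probes into a log2 value, which would hide a change common to most transcripts.

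The platform annotation named 1 gene for 21789 of 35557 clusters, more than 1 gene for 1621, and left 12147 without a name. All 35 endothelial genes matched the gene table (GRCm38.p6) by Entrez identifier. Differences, knockout minus wild type, came from limma 3.58.1 (lmFit, eBayes) in R 4.3.3 on all 6 arrays, with no filter and Benjamini-Hochberg adjustment over 23410 named clusters (threshold 0.05). The fit was run on simulated data, where the check was that mean differences lay within 0.1 of those added. That check did not cover the p-values. Counts over the genes under unadjusted limits are read beside the share of all named clusters, except with single arrays left out or with the filter at the median signal. Exact permutation was not used, since with 3 arrays a side its smallest two-sided p is 0.1. The labels call samples biological replicates. They give no meaning for the replicate numbers. These were taken to pair arrays because all 3 same-number correlations of deviations exceeded 0.1 over all named clusters. Over the 35 genes alone only that of number 1 did. A fit blocking on the number was added (correlations in the results). Xist and Y-linked signal were alike within a number and differed between numbers, so the block also takes up that contrast. Its part in the correlations was not tested.

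The genes and lists were chosen with earlier results of these data known. Values on every array are given for 23 of the 35 genes: those whose arrays did not overlap or whose unadjusted p was under 0.05 with or without the block, and others named as landmarks whatever their values (Pecam1, Kdr, Erg, Cldn5, Plvap, Esm1 and Slco1a4). Of other lists, genes are named from the 3 lowest p-values. Alternatives were other scalings, variance models, array weights, filters on signal, the block, a lens covariate and arrays left out.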

Additional observations from a re-analysis of the deposited data

How the results depend on the processing

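In no alternative did any of the 35 genes pass correction in limma, with a lowest adjusted p of 0.0869 with the replicate block and 0.13 without it, and 22 of the 35 kept their sign in each of the 17 alternatives that tested them. Leaving out 1 array at a time gave 28 to 33 genes above 0, a median difference from 0.081 to 0.18, 6 to 17 genes at an unadjusted p under 0.05, 9 to 22 without overlap, and 22 to 26 higher within every remaining replicate number. The extremes of 6 and 17 came without the replicate 3 and the replicate 2 knockout array, and 22 without the replicate 2 knockout array. With an array left out, overlap is rarer and agreement within every remaining number more frequent by construction. No share of named clusters stands beside these counts. The filter at the median signal left 5 of the 35 genes, with 4 above 0, 1 at an unadjusted p under 0.05, 1 without overlap and 3 higher within every number. Shares of the clusters that passed this filter were not taken. With the lens covariate 4 genes had an unadjusted p under 0.05. Without both replicate 2 arrays the median difference was 0.21 and 23 genes did not overlap, a comparison of 2 with 2 arrays in which overlap is rarer by construction. The replicate block gave 1 cluster past correction over all named clusters, where 0 passed without it and in each array left out (395 higher and 408 lower at an unadjusted p under 0.05 without it), and 15 of the 35 genes at an unadjusted p under 0.05, and it changed no call after correction among them. Averaging the clusters of a gene changed nothing, since each gene had 1.

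Signs turned only for small differences. The lens covariate gave -0.019 for Tie1, -0.20 for Esam, -0.14 for Cldn5, -0.0058 for Egfl7, -0.040 for Erg, -0.064 for Ets1, -0.016 for Sox7, -0.015 for Sox17, -0.0047 for Plvap and -0.16 for Dll4. Without both replicate 2 arrays Flt4 was at -0.021 and Ets1 at -0.027. With 1 array left out the range was -0.0027 to 0.12 for Flt4, -0.060 to 0.068 for Ets1, -0.024 to 0.25 for Esam, -0.019 to 0.18 for Cldn5, -0.0086 to 0.053 for Erg, -0.042 to 0.086 for Sox7, -0.043 to 0.10 for Plvap, -0.027 to 0.25 for Dll4, -0.029 to 0.089 for Esm1 and -0.051 to 0.18 for Slco1a4. The cause of these changes was not tested. Weak signal limits the 14 genes at or under the olfactory receptor mark.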
